A study of Mus musculus with 6 samples.

Results

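A set of 10 genes of brain microglia was examined in the brains of old Sgo1-/+ and wild-type (WT) mice, chosen by gene symbol from the 38087 genes of the deposited table. Csf1r, Cx3cr1, P2ry12 and Tmem119 are the 4 homeostatic genes, which resting microglia express, and Trem2, Tyrobp, Cst7, Itgax, Clec7a and Axl are the 6 amyloid-response genes, known from microglia around amyloid plaques. RNA of the cerebrum, cortex and hippocampus included, was sequenced from 3 WT and 3 Sgo1-/+ mice, with 1 library per mouse. All 6 mice were 24 months old, untreated, and survivors of a larger ageing cohort. WT mice were of the C57BL6 strain, and Sgo1-/+ mice carried 1 disrupted copy of Sgo1 on that background in every cell of the body, so no cell type was targeted. Sgo1 encodes Shugoshin-1, which protects the cohesion of sister chromatids in mitosis. The study examined the Sgo1-/+ brain as a possible model of amyloid accumulation at old age.

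Run 258 held all WT libraries and run 259 all Sgo1-/+ libraries, so run and genotype cannot be told apart. Males gave WT replicate 1 and Sgo1-/+ replicate 2, and the other 4 mice were females. Library totals lay between 11123917 and 12505561 estimated counts. Sgo1 itself had 0, 7 and 0 estimated counts in the WT libraries (replicates 1 to 3, the order used throughout) and 4, 2 and 0 in the Sgo1-/+ libraries. A count of 0 allows up to 3 counts, so the genotype could not be checked from the targeted gene at this depth. WT replicate 1 stood apart from the rest. All 9 listed genes of cerebellar granule cells, all 8 of Purkinje cells and all 9 of the medulla and spinal cord were highest in it, although cerebellum and medulla were to be left out at dissection. The summed normalized counts of the granule cell genes were 19020 in WT replicate 1 and 1207 to 2369 in the other 5 libraries. Oligodendrocyte genes were high in both WT replicate 1 and Sgo1-/+ replicate 3, and values without these libraries are given with the results below.

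Microglia are the resident macrophages of the brain. In the healthy brain they depend on signals such as CSF1, IL-34 and TGF-β, survey their surroundings and carry a set of surface receptors that is often called homeostatic. Around amyloid plaques they bind lipids and cell debris through TREM2, which signals through its adaptor TYROBP, lower the homeostatic receptors and take up a program of lysosomal, lipid and phagocytic genes known as the disease-associated state. Many microglial promoters are bound by PU.1, a transcription factor of the ETS family that recognises a purine-rich core, often together with a factor of the IRF family.

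Promoter windows of 250 bases up to the RefSeq transcription start (build GRCm38.p6) were available for 7 of the 10 genes, namely Trem2, Cst7, Itgax, Clec7a, Axl, Cx3cr1 and P2ry12. Tyrobp and Tmem119 had no entry, and the Csf1r window is not shown. The windows were searched on both strands for GAGGAA, a PU.1-type core, for AGGAAGT, an ETS-type site, and for an ETS and IRF composite site, GGAA and TGAAA with 1 base of any kind between them. GAGGAA and AGGAAGT can overlap in the letters AGGAA. The 4 windows printed here belong to the lipid receptor that defines the amyloid response, to the pair of its low-abundance genes whose window held a match, and to a homeostatic gene for contrast. Each is written 5′ to 3′ on the strand of its gene, with the matched letters in capitals. Capitals that begin with TTCC or TTTC are matches on the other strand. The windows lie at chr17:48346151-48346400 (plus strand), chr6:129472780-129473029 (minus strand), chr2:150570165-150570414 (plus strand) and chr3:59262986-59263235 (minus strand).
Trem2: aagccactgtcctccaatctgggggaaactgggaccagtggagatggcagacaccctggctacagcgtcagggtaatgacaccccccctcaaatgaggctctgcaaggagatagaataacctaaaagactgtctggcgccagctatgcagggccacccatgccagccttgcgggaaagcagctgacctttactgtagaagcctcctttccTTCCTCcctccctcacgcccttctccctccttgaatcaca
Clec7a: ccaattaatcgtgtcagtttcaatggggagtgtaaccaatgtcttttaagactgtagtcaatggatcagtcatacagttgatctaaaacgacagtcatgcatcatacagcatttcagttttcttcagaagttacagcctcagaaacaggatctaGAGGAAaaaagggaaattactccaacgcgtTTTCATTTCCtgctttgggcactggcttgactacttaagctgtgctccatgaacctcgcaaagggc
Cst7: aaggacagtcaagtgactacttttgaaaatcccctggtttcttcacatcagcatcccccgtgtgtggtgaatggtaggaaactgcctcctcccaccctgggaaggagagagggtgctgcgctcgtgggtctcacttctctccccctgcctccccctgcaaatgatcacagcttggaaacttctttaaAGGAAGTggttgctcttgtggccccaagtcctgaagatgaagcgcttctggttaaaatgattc
P2ry12: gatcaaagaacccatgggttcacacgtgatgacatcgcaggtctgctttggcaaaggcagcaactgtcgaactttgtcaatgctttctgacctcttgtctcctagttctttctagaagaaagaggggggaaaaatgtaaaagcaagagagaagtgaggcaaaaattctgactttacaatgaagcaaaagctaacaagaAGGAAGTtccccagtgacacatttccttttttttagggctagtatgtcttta

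GAGGAA was present in the windows of Trem2, Clec7a and Axl, 3 of 7, and in 23.3% of all 32851 promoter windows of that length. The Trem2 match began 40 bases before the start. AGGAAGT was present in 2 of 7, Cst7 at 63 and P2ry12 at 52 bases before the start, and in 7.69% of all windows. The composite site was present only in Clec7a among the 7, 66 bases before the start, and in 0.594% of all windows. Both gene sets held windows with an ETS-type match, and the Itgax and Cx3cr1 windows held none of these letters. The motifs were chosen after their matches were seen, so setting these counts beside the shares of all windows is no test of enrichment. These matches are descriptions of sequence and were not tied to the expression values below.

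All 4 homeostatic genes had a higher mean in Sgo1-/+ than in WT brains, by 24.5% to 33.6%, and none of them passed the test over all genes. A log2 fold change above 0 was found for 4 of 4 homeostatic and 3 of 6 amyloid-response genes, and for 49.8% of all tested genes. Across the 16337 genes tested, 0 genes (0.0%) had an adjusted p under 0.05 in the edgeR quasi-likelihood test with Benjamini-Hochberg adjustment, and every member had an adjusted p of 0.9998. At an unadjusted p under 0.05 the same test called 333 genes (2.04%), with 132 (0.808%) higher and 201 (1.23%) lower in Sgo1-/+. Csf1r was the 1 member among them. DESeq2 called 3 genes and edgeR's likelihood ratio test 2 at the adjusted threshold, and no member was among them. The lowest adjusted p of any member under any setting was 0.763. A difference in the number of microglia and a difference in RNA per microglial cell cannot be told apart in RNA of whole tissue.

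**Figure D1:**
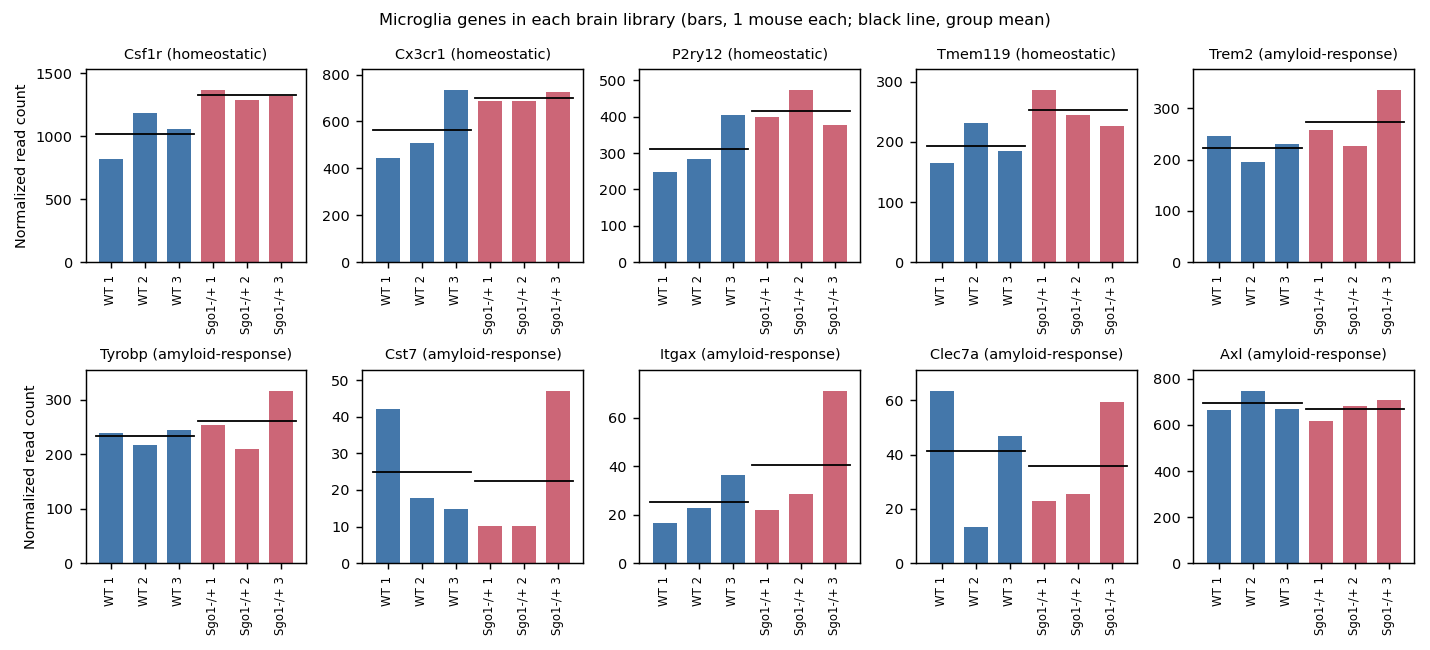
Normalized read counts of the 10 microglia genes (vertical axes, each starting at 0) in the 3 WT and 3 Sgo1-/+ brain libraries (horizontal axes), with 1 bar per mouse and a black line at each group mean. WT replicate 1 has the lowest bar in all 4 homeostatic panels, and Sgo1-/+ replicate 3 the highest in the Trem2, Tyrobp, Cst7 and Itgax panels.

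Csf1r encodes the receptor for CSF1 and IL-34 on which the survival of microglia depends. In the deposited coordinates (mm10) it lies at chr18:61105572-61132149 on the plus strand. Its normalized counts, estimated counts scaled to a common library size, were 819, 1183 and 1056 in WT and 1365, 1288 and 1317 in Sgo1-/+. Every Sgo1-/+ library was above every WT library, which held for 535 of the tested genes (3.27%), while 583 (3.57%) had every WT library above every Sgo1-/+ library. The WT mean was 1019 ± 185 (SD, n = 3) and the Sgo1-/+ mean 1323 ± 39.0 (SD, n = 3). On the log2 scale Csf1r was 0.38 ± 0.15 (SE) higher in Sgo1-/+, with an unadjusted p of 0.038 in edgeR. Permuting the libraries exactly gave a two-sided p of 0.1, the lowest value possible with 3 against 3. Leaving out WT replicate 1 lowered the difference to 0.24 (unadjusted p = 0.040 in edgeR, a fit in which 1.89% of all tested genes were higher at an unadjusted p under 0.05). Leaving out Sgo1-/+ replicate 3 gave 0.38 with an unadjusted p of 0.083. Exons of Hmgxb3 on the other strand cover 873 bases (15.1%) of the exons of Csf1r, and the kit does not keep the strand, so reads there cannot be assigned to either gene. Normalized counts of Hmgxb3 were 513 ± 57.1 (SD) in the 3 WT libraries and 539 ± 37.9 (SD) in the 3 Sgo1-/+ libraries.

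Cx3cr1, at chr9:119901616-120068283 on the minus strand, encodes the receptor for fractalkine, a chemokine displayed by neurons. It had 444, 510 and 734 normalized counts in WT and 689, 688 and 724 in Sgo1-/+. WT replicate 3 was the highest of all 6 libraries and the groups overlapped. Its log2 fold change was 0.32 ± 0.19 (SE; unadjusted p = 0.14 in edgeR) and fell to 0.17 without WT replicate 1. Without WT replicate 3 it was 0.56 (unadjusted p = 0.0042, adjusted p = 0.763 in edgeR), and in females only 0.19. An antisense gene, Gm33858, shares 78 bases (1.73%) of the Cx3cr1 exons, and the 9 exon bases that P2ry12 shares with Med12l are the only other such overlap among the remaining members.

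P2ry12, at chr3:59216271-59262831 on the minus strand, encodes the ADP receptor that guides microglial processes to injured cells. Its normalized counts were 247, 284 and 405 in WT and 399, 474 and 378 in Sgo1-/+. WT replicates 1 and 2 were low and WT replicate 3 lay within the Sgo1-/+ range. With a log2 fold change of 0.42 ± 0.21 (SE; unadjusted p = 0.084 in edgeR), P2ry12 had the largest difference of the 4 homeostatic genes. It was 0.28 without WT replicate 1, 0.65 without WT replicate 3 (unadjusted p = 0.0074, adjusted p = 0.763 in edgeR) and 0.18 in females only.

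Tmem119, at chr5:113793729-113800516 on the minus strand, encodes a membrane protein used to tell microglia from blood-derived macrophages. It had 164, 231 and 185 normalized counts in WT and 286, 245 and 227 in Sgo1-/+. The groups overlapped only by WT replicate 2, which lay just above Sgo1-/+ replicate 3. The log2 fold change was 0.39 ± 0.18 (SE; unadjusted p = 0.066 in edgeR), and 0.28 without WT replicate 1. Exact permutation tests of Cx3cr1, P2ry12 and Tmem119 gave p = 0.4, 0.3 and 0.2, unadjusted. Without WT replicate 1 all 4 homeostatic genes were still higher in Sgo1-/+, against 51.2% of all tested genes.

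WT replicate 1 was the lowest library for 4 of 4 homeostatic genes, and for 30.2% of all tested genes. The summed normalized counts of the 4 genes were 1674, 2208 and 2380 in WT and 2740, 2695 and 2646 in Sgo1-/+. The mean of this sum was 1.29 times as high in Sgo1-/+ as in WT, and 1.17 times without WT replicate 1. The Sgo1-/+ libraries were close to each other (2694 ± 47.1, SD, n = 3) and the WT libraries spread more widely (2087 ± 368, SD, n = 3). Of 8 neuronal genes, 5 were lowest and 2 (Stmn2 and Tubb3, the latter named after its values were seen) highest in WT replicate 1, with a median there of −0.52 on the log2 scale relative to the 6-library median. The part of the hindbrain genes in the low homeostatic counts was not tested. The 4 genes stayed higher in Sgo1-/+ when WT replicate 1 and Sgo1-/+ replicate 3 were both left out, with log2 fold changes of 0.15 (Cx3cr1) to 0.35 (Tmem119), where 50.1% of all tested genes were above 0.

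The 6 amyloid-response genes showed no common direction. Trem2, Tyrobp and Itgax had higher means in Sgo1-/+ and Cst7, Clec7a and Axl lower ones, and the groups overlapped for all 6. Of the 6 genes, 4 were highest in Sgo1-/+ replicate 3, against 12.8% of all tested genes. This was not particular to the amyloid response. The same library was highest for 8 of 16 genes shared by microglia in all states, and for 0 of 4 homeostatic members. Without Sgo1-/+ replicate 3, 1 of 6 amyloid-response genes had a log2 fold change above 0, against 49.7% of all tested genes. Of the others, Tyrobp (−0.0063) and Itgax (−0.0024) then showed almost no difference.

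Trem2, at chr17:48346401-48354147 on the plus strand, encodes the lipid receptor on which the disease-associated state depends. It had 246, 194 and 230 normalized counts in WT and 258, 227 and 336 in Sgo1-/+. Sgo1-/+ replicate 3 was the highest library and the other 2 Sgo1-/+ libraries were close to the WT ones. Its log2 fold change was 0.29 ± 0.19 (SE; unadjusted p = 0.16 in edgeR) and fell to 0.12 without Sgo1-/+ replicate 3.

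Tyrobp, at chr7:30413788-30417577 on the plus strand, encodes the signalling adaptor of TREM2, also called DAP12. Its normalized counts were 239, 217 and 244 in WT and 254, 210 and 316 in Sgo1-/+, again with Sgo1-/+ replicate 3 at the top. The log2 fold change of 0.16 ± 0.18 (SE; unadjusted p = 0.40 in edgeR) became −0.0063 without that library. The receptor and its adaptor kept an almost fixed ratio, with 89.6 to 108 Trem2 counts per 100 Tyrobp counts in every library. Their log2 CPM values had a Pearson r of 0.93 over the 6 libraries, given as a description.

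Another 3 amyloid-response genes were rare in these libraries. Cst7, at chr2:150570415-150578944 on the plus strand, encodes cystatin F, an inhibitor of lysosomal cathepsins. It had 42.1, 17.9 and 14.7 normalized counts in WT and 10.1, 10.1 and 47.1 in Sgo1-/+. WT replicate 1 and Sgo1-/+ replicate 3 were high and the other 4 libraries low. The 95% exact Poisson interval of the 46 counts in Sgo1-/+ replicate 3 ran from 33.7 to 61.4, and that of the 10 counts in Sgo1-/+ replicate 1 from 4.80 to 18.4, so this gap between mice of 1 genotype exceeded the counting error, which is all that these intervals cover. The group means did not differ beyond their spread, with a log2 fold change of −0.15 ± 0.73 (SE; unadjusted p = 0.84 in edgeR). Without Sgo1-/+ replicate 3 it was −1.30, and without WT replicate 1 it was 0.46.

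Itgax, at chr7:128129547-128150656 on the plus strand, encodes CD11c, an integrin subunit of dendritic cells and of plaque-associated microglia. Its normalized counts were 16.5, 22.9 and 36.5 in WT and 21.9, 28.4 and 71.1 in Sgo1-/+. The log2 fold change of 0.69 ± 0.54 (SE; unadjusted p = 0.24 in edgeR) rested on Sgo1-/+ replicate 3 and was −0.0024 without it. Sgo1-/+ replicates 1 and 2 lay within the WT range.

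Clec7a, at chr6:129461591-129472777 on the minus strand, encodes dectin-1, a receptor for fungal glucans that marks microglia at plaques. The table types it as a polymorphic pseudogene, a gene that is intact in some strains and not in others. It had 63.4, 13.3 and 46.7 normalized counts in WT and 22.8, 25.3 and 59.3 in Sgo1-/+. WT replicate 2 was the lowest library and WT replicate 1 the highest, so the WT group held both extremes. Over all libraries the log2 fold change was −0.20 ± 0.62 (SE; unadjusted p = 0.76 in edgeR), −0.77 without Sgo1-/+ replicate 3 and 0.26 without WT replicate 1.

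Together, Cst7, Itgax and Clec7a summed to 122, 54.1 and 97.9 normalized counts in WT and 54.8, 63.8 and 177 in Sgo1-/+. Sgo1-/+ replicate 3 held 2.99 times the mean of the other 2 Sgo1-/+ libraries. The WT mean of this sum was 91.3 ± 34.4 (SD, n = 3) and the Sgo1-/+ mean 98.7 ± 68.4 (SD, n = 3), so the groups differed by less than the spread between mice.

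Axl, at chr7:25757273-25788705 on the minus strand, encodes a receptor tyrosine kinase that binds GAS6 on dying cells, and astrocytes and vascular cells express it too. It had 665, 748 and 669 normalized counts in WT and 618, 684 and 708 in Sgo1-/+. It was the steadiest member, with a coefficient of variation of 6.41% over the 6 libraries, against 69.9% for Cst7, 60.6% for Itgax and 54.2% for Clec7a. Its log2 fold change was −0.05 ± 0.11 (SE; unadjusted p = 0.65 in edgeR). Exact permutation tests gave p = 0.3 for Trem2, 0.5 for Tyrobp, 0.8 for Cst7, 0.6 for Itgax, 0.9 for Clec7a and 0.6 for Axl, unadjusted.

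**Figure D2:**
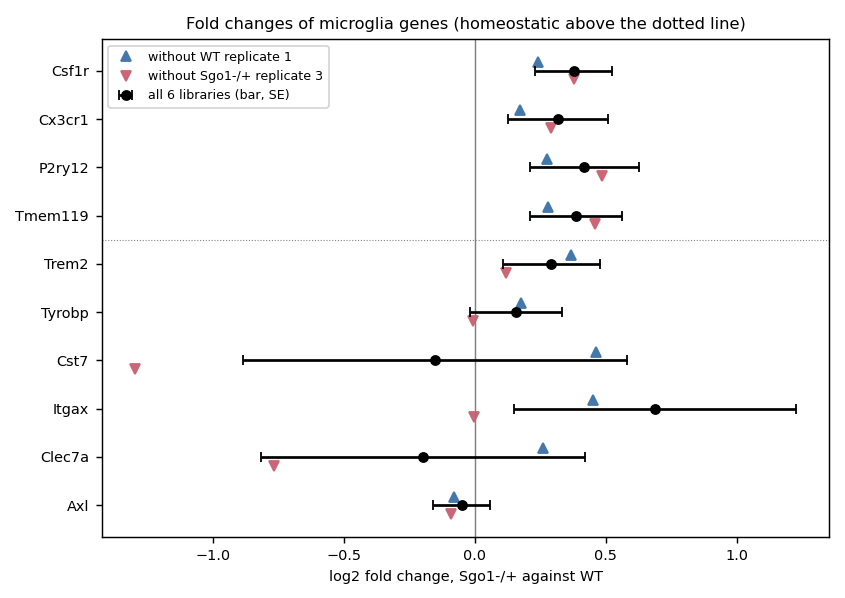
Log2 fold changes of Sgo1-/+ against WT for the 10 microglia genes from edgeR, with all 6 libraries (black points, bars give the SE), without WT replicate 1 (blue triangles) and without Sgo1-/+ replicate 3 (red triangles). The homeostatic genes stay between 0.17 and 0.48 in these 3 fits, while Cst7 runs from −1.30 to 0.46.

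Both gene sets were set against each other library by library. The mean log2 CPM of the 4 homeostatic genes was 4.86, 5.21 and 5.35 in WT and 5.57, 5.56 and 5.47 in Sgo1-/+, so that the groups did not overlap. The difference of the group means was 0.39 with a within-group SD of 0.18, and it was 0.25 without WT replicate 1 and 0.24 in females only. For the 6 amyloid-response genes it was 3.22, 2.71 and 3.08 in WT and 2.75, 2.78 and 3.73 in Sgo1-/+. Here the difference was 0.08 with a within-group SD of 0.43, and its sign was not stable. It turned to −0.24 without Sgo1-/+ replicate 3 and to −0.07 without WT replicate 2, and was 0.19 without WT replicate 1. Leaving out Sgo1-/+ replicate 1 gave 0.25, leaving out Sgo1-/+ replicate 2 gave 0.23, and females only gave 0.34. The amyloid-response mean minus the homeostatic mean, which does not depend on how a library is scaled, was −1.63, −2.50 and −2.27 in WT and −2.82, −2.77 and −1.75 in Sgo1-/+. WT replicate 1 and Sgo1-/+ replicate 3 had the highest values of this contrast, 1 in each genotype. The group difference of −0.31 was smaller than its within-group SD of 0.53, and ranged from −0.66 (without Sgo1-/+ replicate 3) to −0.06 (without WT replicate 1) with each library left out. Leaving out WT replicate 2 gave −0.50, Sgo1-/+ replicate 1 gave −0.12 and Sgo1-/+ replicate 2 gave −0.15. In females only it turned to 0.10. The same 2 libraries had the highest sums over 8 oligodendrocyte genes, 144448 and 136619 normalized counts against 55087 to 79745 in the other 4, and the part of this in the contrast was not tested.

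**Figure D3:**
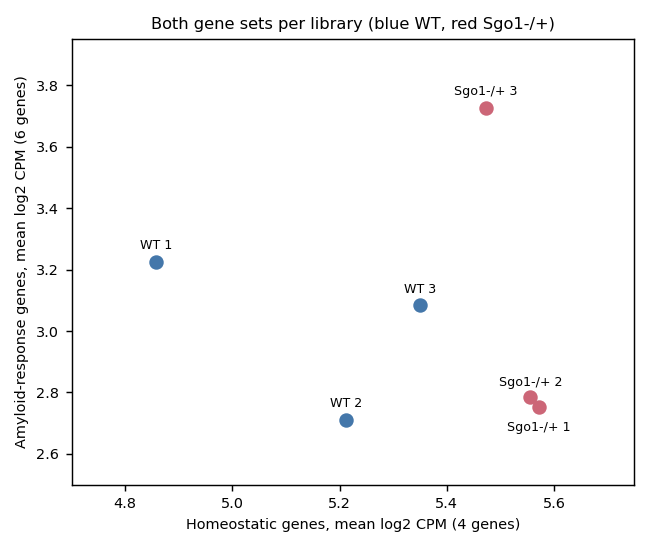
Mean log2 CPM of the 6 amyloid-response genes (vertical axis) against that of the 4 homeostatic genes (horizontal axis) in each library, blue for WT and red for Sgo1-/+. Sgo1-/+ replicates 1 and 2 lie together at the lower right, Sgo1-/+ replicate 3 lies above all others at 3.73, and WT replicate 1 lies furthest to the left at 4.86.

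Per length, Tyrobp was the most abundant member. With each gene's CPM divided by the length of its principal transcript in kilobases, the mean level over the 6 libraries was 36.1 ± 5.55 (SD, n = 6) for Tyrobp, 20.6 ± 3.61 for Csf1r, 18.9 ± 3.63 for Trem2, 13.2 ± 0.848 for Axl, 12.9 ± 2.96 for P2ry12, 11.6 ± 2.26 for Cx3cr1, 8.23 ± 1.61 for Tmem119, 4.50 ± 2.44 for Clec7a, 1.98 ± 1.39 for Cst7 and 0.672 ± 0.407 for Itgax. By this length, Tyrobp was above Csf1r, Trem2 above Axl, Cx3cr1 above Tmem119, Clec7a above Cst7 and Cst7 above Itgax in all 6 libraries. Csf1r exceeded Trem2 in 4 of 6 libraries and Axl exceeded P2ry12 in 3 of 6, so these neighbours could not be ordered, and P2ry12 exceeded Cx3cr1 and Tmem119 exceeded Clec7a in 5 of 6. The places of Trem2, Clec7a and Axl depended on the length used. With all annotated exons merged the mean level of Trem2 was 4.15, below that of Axl at 11.2. Axl in turn was below P2ry12 at 11.8 and Cx3cr1 at 11.6. Likewise, Clec7a was then at 1.21, below Cst7 at 1.98. Homeostatic and amyloid-response genes were thus mixed among the abundant members, and the 3 rarest were all of the amyloid response.

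Further genes listed for the same programs are given next, list by list. RNA of whole tissue does not show which cells their counts came from. In the main fit 49.8% of all tested genes had a log2 fold change above 0, the share to set beside each list. Of 16 further homeostatic microglia genes, all tested, 13 were higher and 3 lower in Sgo1-/+, 1 had an unadjusted p under 0.05 and none passed the adjusted test. Their median log2 fold change was 0.20, against −0.00071 over all tested genes, and 0.07 without WT replicate 1. Selplg, a ligand of selectins, had 210, 269 and 308 normalized counts in WT and 391, 375 and 347 in Sgo1-/+, without overlap, and a log2 fold change of 0.50 ± 0.16 (SE; unadjusted p = 0.018 in edgeR). P2ry13, a further ADP receptor, had a log2 fold change of 0.46 at an unadjusted p of 0.11 in edgeR. Sall1, a transcription factor that maintains microglial identity, pointed the other way with 323, 721 and 553 normalized counts in WT and 388, 318 and 314 in Sgo1-/+, with a log2 fold change of −0.65 ± 0.28 (SE; unadjusted p = 0.056 in edgeR).

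Among 16 genes shared by microglia in all states, 9 were higher and 7 lower in Sgo1-/+, with a median log2 fold change of 0.09, or −0.01 without WT replicate 1. Laptm5, a lysosomal membrane protein of blood-lineage cells, was the 1 gene with an unadjusted p under 0.05. It had 396, 373 and 494 normalized counts in WT and 589, 472 and 612 in Sgo1-/+, with a log2 fold change of 0.41 ± 0.16 (SE; unadjusted p = 0.039 in edgeR). Aif1, which encodes the microglial stain IBA1, had a log2 fold change of 0.29 (unadjusted p = 0.27 in edgeR), and Itgam, which encodes CD11b, one of 0.11 (unadjusted p = 0.38 in edgeR). The 16 genes summed to 3976 to 4261 normalized counts in WT and 3789 to 4966 in Sgo1-/+, with the highest sum in Sgo1-/+ replicate 3.

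Of 28 further amyloid-response genes, 27 were in the table under the listed symbol and 26 were tested. 13 were higher and 13 lower in Sgo1-/+, none had an unadjusted p under 0.05, and the median log2 fold change was −0.02. Ctsl, a lysosomal cathepsin, had 1494, 1437 and 1163 normalized counts in WT and 1190, 1050 and 1104 in Sgo1-/+, with a log2 fold change of −0.29 ± 0.13 (SE; unadjusted p = 0.056 in edgeR). Cd22, an inhibitory sialic acid receptor, was low throughout but did not overlap between groups, with 13.1, 21.9 and 18.3 normalized counts in WT and 40.7, 24.3 and 23.7 in Sgo1-/+. Ccl3, a chemokine, had the opposite order, with 20.5, 20.9 and 22.2 in WT and 9.93, 8.11 and 20.2 in Sgo1-/+. Of the 26 tested genes, 2 had every Sgo1-/+ library above every WT library and 1 the reverse. Over all tested genes these shares were 3.27% and 3.57%. Igf1, a growth factor, had a log2 fold change of −0.49 (unadjusted p = 0.12 in edgeR). Sgo1-/+ replicate 3 was the highest library for 7 of the 27 genes, against 12.8% of all tested genes. WT replicate 1 was the highest for 10, and the share of all tested genes highest there was not counted.

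The ligands of the members showed no called difference. Of 8 ligands, 7 were higher and 1 lower in Sgo1-/+, where 49.8% of all tested genes were higher. Their median log2 fold change was 0.17, and none had an unadjusted p under 0.05 in edgeR. Csf1 and Il34, the ligands of CSF1R, had log2 fold changes of 0.07 and 0.33 (unadjusted p = 0.73 and 0.36 in edgeR). Cx3cl1, which encodes fractalkine, had 2087, 5194 and 8539 normalized counts in WT and 6868, 8842 and 7829 in Sgo1-/+, and its log2 fold change of 0.57 (unadjusted p = 0.245 in edgeR) came with a low value in WT replicate 1. Apoe and Clu, lipid carriers that TREM2 binds, had log2 fold changes of 0.03 and 0.29, and Gas6 and Pros1, ligands of AXL and its relatives, −0.03 and 0.22. Tgfb1, which maintains the homeostatic state, had one of 0.12.

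Of 18 receptor partners and signalling genes, 17 were tested. 13 were higher and 4 lower in Sgo1-/+, where 49.8% of all tested genes were higher. The median log2 fold change was 0.22, or 0.09 without WT replicate 1. None had an unadjusted p under 0.05. Entpd1, which encodes the ectonucleotidase CD39, had 98.7, 147 and 187 normalized counts in WT and 243, 194 and 178 in Sgo1-/+, with a log2 fold change of 0.51 (unadjusted p = 0.090 in edgeR). Plcg2 and Inpp5d, which act downstream of TREM2, had log2 fold changes of 0.58 and 0.45 (unadjusted p = 0.159 and 0.205 in edgeR). Smad3, which carries the TGF-β signal, had 544, 899 and 923 normalized counts in WT and 954, 1026 and 956 in Sgo1-/+. It was the 1 tested gene of this list with every Sgo1-/+ library above every WT library, against 3.27% of all tested genes. The TGF-β receptor gene Tgfbr1 had a log2 fold change of 0.22. The kinase Syk had one of 0.31 and the proteases Adam10 and Adam17, which shed TREM2, −0.05 and −0.12.

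Counted without WT replicate 1 and Sgo1-/+ replicate 3, 4 of 4 homeostatic members, 10 of 16 further homeostatic genes, 7 of 16 genes shared by all microglia, 2 of 6 amyloid-response members and 12 of 26 further amyloid-response genes were higher in Sgo1-/+. In that fit 50.1% of all tested genes had a log2 fold change above 0. The median log2 fold changes of these lists were then 0.29, 0.07, −0.06, −0.18 and −0.01.

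**Figure D4:**
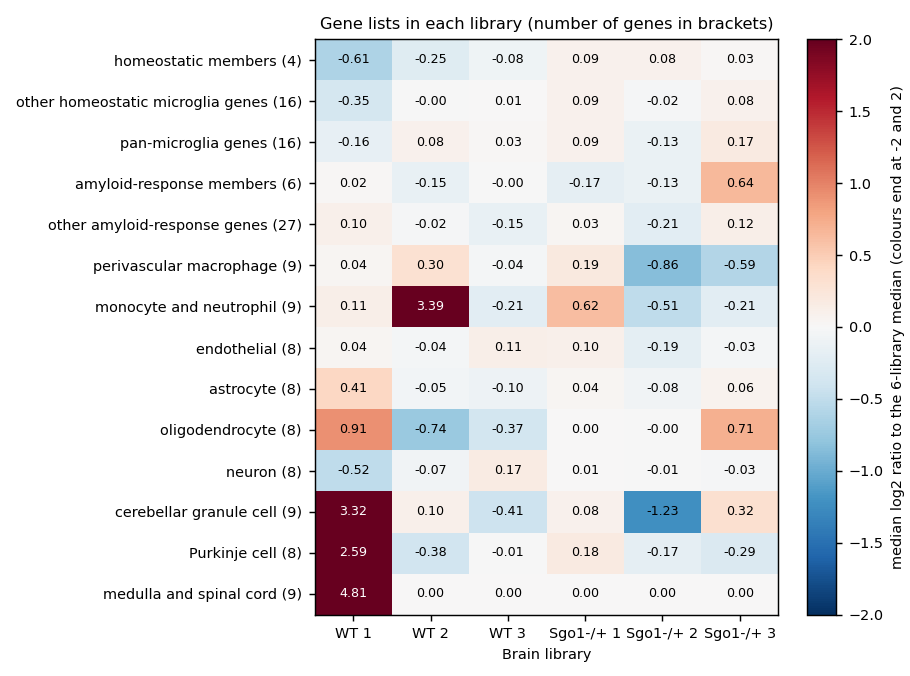
Median, over the genes of each list, of the log2 ratio of a library to the median of the 6 libraries, with the number of genes in brackets, the value printed in each cell and the colour scale ending at −2 and 2. The homeostatic members stand at −0.61 in WT replicate 1, the amyloid-response members at 0.64 in Sgo1-/+ replicate 3, and the cerebellar and medullary lists between 2.59 and 4.81 in WT replicate 1.

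Cells other than microglia can carry some of the members and some of the further listed genes. Of 9 genes of perivascular macrophages 7 were tested, and 1 was higher and 6 lower in Sgo1-/+, with summed normalized counts of 339 to 534 in WT and 314 to 469 in Sgo1-/+. Cbr2, a carbonyl reductase, had 16.2, 23.7 and 16.2 normalized counts in WT and 7.95, 5.96 and 2.05 in Sgo1-/+, with a log2 fold change of −1.78 ± 0.50 (SE; unadjusted p = 0.0093 in edgeR) that did not pass the adjusted test. Of 9 monocyte and neutrophil genes 4 were tested, and the list summed to 793 in WT replicate 2 and to 46.6 to 140 in the other 5 libraries. Among the 10 members, WT replicate 2 was the lowest library for Clec7a and Trem2 and the highest for Axl. The 9 lymphocyte genes summed to 55.1 to 83.9 in WT and 57.7 to 137 in Sgo1-/+. None of the genes of these 3 lists was at 0 in all libraries, and their part in the member values was not tested. The 8 endothelial genes and the 8 astrocyte genes, which mark cells that also express Axl, had median log2 fold changes of 0.01 and −0.06. The 5 red cell genes were highest in Sgo1-/+ replicate 1. In that library 2 of 4 homeostatic members, 7 of 16 further homeostatic genes and 6 of 18 receptor partners were highest. So were 2 of 16 genes shared by all microglia, 3 of the 27 further amyloid-response genes and none of the 6 amyloid-response members. The share of all tested genes that were highest in that library was not counted, so these counts cannot be set against it. The part of blood in these values was not tested.

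Over all tested genes with a mean of at least 50 normalized counts, 12983 candidates, those most like the mean of the homeostatic members over the 6 libraries included Elp3, Selplg, Tug1 and Klf11, with Pearson r from 0.991 to 0.994 on log2 CPM. Selplg was the 1 listed microglia gene among these 4. Those most like the mean of the amyloid-response members were Nfix, B3gat3, Adam11, Map3k12 and Mfsd12, with r from 0.969 to 0.977, none of them on a microglia list. These correlations rest on 6 libraries that share genotype, run and tissue makeup. Among the members, Cx3cr1 with P2ry12 (r = 0.92) and Csf1r with Tmem119 (r = 0.92) were the closest homeostatic pairs.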

How the data were processed

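RNA of 6 brains was sequenced as paired reads on a MiSeq from TruSeq V2 libraries, 1 per mouse. In Strand NGS the authors aligned them to mm10, and they deposited unscaled estimated counts for 38087 Ensembl genes. They also deposited log2 values after DESeq normalization, with each gene's median over the libraries subtracted, and used here only as an alternative. Further columns hold the authors' fold changes between the groups, and were not used. Annotation release and use of strand are not given in the sources used here. Columns were assigned to groups by the brain number and to replicates by the sample number in their names, which do not state the genotype. The sex genes Xist and Ddx3y matched the labelled sex in 6 of 6 libraries, a check that cannot tell mice of the same sex apart.

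Members and lists were chosen with earlier results of these data known. Estimated counts were rounded and tested with the quasi-likelihood test of edgeR 4.0.16 on 16337 genes (those that its filterByExpr keeps, scaled by TMM, no covariate) in R 4.3.3, adjusted by Benjamini-Hochberg, at a threshold of 0.05. The common biological coefficient of variation was 25.9%. The tests were checked on simulated counts. For normalized counts, each unrounded estimated count was divided by the effective (TMM) library size and brought back to the mean size. Log2 CPM used a prior count of 2. Each member was also tested by exact permutation of the 6 libraries (two-sided). Listed genes were named as the 4 with the smallest unadjusted p per list, apart from ligands and partners named by role, and some genes that this rule names are not reported here. Lengths and overlaps came from GENCODE M21 (36308 of 38087 IDs matched) and promoters from RefSeq. Motifs were chosen after their matches were seen. The alternatives were DESeq2 1.42.0, edgeR's likelihood ratio test, limma 3.58.1 on the authors' log2 values, other size factors, other filters on low counts, sex as a covariate, females only, a block for the replicate number, leaving out each library and, chosen after seeing the data, WT replicate 1 and Sgo1-/+ replicate 3 left out together. All p-values measure the spread between mice of 1 sequencing run per genotype.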

Additional observations from a re-analysis of the deposited data

How the results depend on the processing

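Over 160 alternative fits of single members, 148 kept the direction, 12 reversed it and 0 passed an adjusted p of 0.05. The count of genes past the adjusted threshold was 0 and became 3 with DESeq2 and 2 with edgeR's likelihood ratio test. The count of members with an unadjusted p under 0.05 was 1 (Csf1r) and became 0 with the likelihood ratio test, with limma on the authors' values and without both WT replicate 1 and Sgo1-/+ replicate 3. With each library left out it ranged from 0 to 2: it was 0 without any 1 Sgo1-/+ replicate, 1 (Csf1r) without WT replicate 1, 2 (Csf1r and Tmem119) without WT replicate 2 and 2 (Cx3cr1 and P2ry12) without WT replicate 3. In females only it was 1, Trem2 in place of Csf1r. The replicate number as a block gave 0 members, with same-numbered libraries correlating at −0.15, 0.01 and −0.21, so the numbers were not taken to pair the mice. Genes with an unadjusted p under 0.05 numbered 333, against 614 without WT replicate 1, 1012 without WT replicate 3, 570 in females only, 522 without both libraries and 563 with no filter on low counts.

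In females only, a fit that also leaves out WT replicate 1, Cst7 reversed to 0.81 and Clec7a to 0.46. Without WT replicate 1 alone they reversed to 0.46 and 0.26, and with sex as a covariate they were −0.09 and −0.13. Without both WT replicate 1 and Sgo1-/+ replicate 3, Itgax reversed to −0.24. With each library, or both of these, left out, log2 fold changes ranged from −1.30 to 0.46 for Cst7, −0.77 to 0.26 for Clec7a, −0.12 to 0.0061 for Axl, −0.0063 to 0.29 for Tyrobp and −0.24 to 1.05 for Itgax. Csf1r (0.24 to 0.50), Cx3cr1 (0.15 to 0.56), P2ry12 (0.18 to 0.65), Tmem119 (0.28 to 0.54) and Trem2 (0.12 to 0.49) kept their direction in all 16 alternatives. The contrast of the amyloid-response with the homeostatic mean changed sign to 0.10 in females only. The cause of these changes was not tested. Leaving out members under 10 counts could not be run, since no member was under 10 counts in any library. Depth limited Cst7, Itgax and Clec7a most, whose counts per library were between 10 and 70.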
